A study of Mus musculus with 6 samples.

Results

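The genes described here act in cellular iron entry and iron sensing, and were taken from RNA sequencing of RAW264.7 cells by their symbols. All 10 are among the 20938 genes of the table analysed. A filter that kept genes averaging 1 FPKM or more left 9936 genes to test, 9 of the members among them. RAW264.7 is a mouse macrophage-like line of BALB/c origin that forms bone-resorbing, multinucleate osteoclasts when induced. All 6 samples were put under osteoclast-inducing conditions. In the first group (n = 3), 8 µM of neobavaisoflavone (NBIF), an isoflavone made by plants, was added, and in the second (n = 3) the solvent DMSO alone at the same volume. The labels give macrophage as the cell type and bone marrow as the tissue, and leave unsaid whether the replicates were grown as separate cultures. The p-values therefore reflect the spread among these 6 samples, part or all of which may be technical. The study asked how the compound acts on osteoclast formation, and its title names Nrf2, iron homeostasis and senescence.

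Most cells take up iron bound to transferrin. The transferrin receptor carries it into endosomes, a STEAP ferrireductase reduces it, and DMT1 passes it to the cytosol, from where mitoferrin brings it into mitochondria for heme and iron-sulfur cluster synthesis. Iron regulatory proteins 1 and 2 bind stem-loops called iron-responsive elements in mRNAs of iron genes when cytosolic iron is low. Binding in the 3′ untranslated region protects the transferrin receptor mRNA from decay, and binding in the 5′ untranslated region blocks translation of ferritin and ferroportin mRNAs. Osteoclasts are rich in mitochondria, and uptake of transferrin-bound iron is known to accompany their formation.

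The element is shown for the members that hold it, because iron regulatory proteins act on these mRNAs, and for the storage and export genes against which they are set later. The protein-coding transcripts of GENCODE M21 (GRCm38, C57BL/6J sequence) were searched on the sense strand for a C, 5 bases, CAGTG and a base other than G, and 5 bases that pair with the first 5, G-T pairs included. Such a full match to the pattern was found in 1.02% of 21866 protein-coding genes, and 8.05% had a match with at least 4 of the 5 pairs. Among the 10 members, Tfrc had 4 full matches, all in its 3′ untranslated region, and Slc11a2 had 1 match with 4 pairs in its 3′ untranslated region. Both ferritin genes and the ferroportin gene Slc40a1 had 1 full match each in the 5′ untranslated region. Capitals mark the 6 bases of the loop.
Tfrc, chr16:32631219-32631247, plus strand: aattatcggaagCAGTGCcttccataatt
Tfrc, chr16:32631598-32631626, plus strand: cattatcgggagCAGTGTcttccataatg
Tfrc, chr16:32631663-32631691, plus strand: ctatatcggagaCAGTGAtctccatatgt
Tfrc, chr16:32631710-32631738, plus strand: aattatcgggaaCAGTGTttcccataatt
Slc11a2, chr15:100395153-100395181, minus strand: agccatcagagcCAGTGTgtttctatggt
Fth1, chr19:9982732-9982760, plus strand: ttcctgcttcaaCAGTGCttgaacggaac
Ftl1, chr7:45459779-45459807, minus strand: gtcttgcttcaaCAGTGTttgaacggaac
Slc40a1, chr1:45925465-45925493, minus strand: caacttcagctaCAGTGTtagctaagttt
The Slc11a2 site lies in 1 of the 6 protein-coding transcripts annotated for that gene and the Tfrc sites in 1 of 3. The Slc40a1 site lies in 1 of 4, the Ftl1 site in 1 of 2 and the Fth1 site in 4 of 5. The table holds 1 value per gene, so transcripts with and without the site could not be told apart for any of these genes. A match is a description of the letters and no measurement of binding.

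FPKM, a read level corrected for transcript length and sequencing depth, summed to between 484603 and 490379 in NBIF samples and between 492217 and 494172 in DMSO samples. The number of reads is unknown, and steps between low values put the depth of the other samples at 0.886 to 1.09 times that of DMSO 1. By limma on log2(FPKM + 1), 1850 of 9936 genes (18.6%) changed at an adjusted p under 0.05, 1047 higher (10.5%) and 803 lower (8.08%) with NBIF. With median-ratio scaling, 692 were higher and 1013 lower. The count was 999 without NBIF 1, 1150 without NBIF 2, 1150 without NBIF 3 and 1173 without DMSO 1. All 8 macrophage markers examined fell, with a summed level of 1430.4 to 1492 FPKM in NBIF samples against 2348 to 2518 FPKM in DMSO samples. Of 9 tested osteoclast markers 4 fell (Acp5, Ctsk, Mmp9 and Ocstamp), Nfatc1 rose and 4 did not pass, with a sum of 6023 to 6828 FPKM in NBIF samples against 7604 to 8199 FPKM in DMSO samples. The part of these shifts in the results on iron genes was not tested, and in bulk samples fewer cells of a type and less RNA per cell cannot be told apart. The 10 erythroid markers, of a cell type with its own iron program, summed to at most 0.378 FPKM in an NBIF sample and 0.573 FPKM in a DMSO sample, with Hba-a1, Hbb-bt and Hbb-bs at 0 throughout. The 8 stromal markers summed to at most 1.69 FPKM and the 7 lymphocyte markers in the table to at most 0.262 FPKM in a sample.

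With NBIF, 2 members rose: the mitochondrial iron importer gene Slc25a37 by 25.2% in mean FPKM and the endosomal ferrireductase gene Steap3 by 18.3%. No tested member fell, and 7 did not pass. The 2 calls were 22.2% of the tested members, near the 18.6% of all tested genes. The median log2 change of the 9 was 0.09, against 0.04 over all tested genes, with 5 of 9 above 0 and a range from -0.18 to 0.55. The 3 NBIF samples lay above the 3 DMSO samples for 3 of the 9 (Slc25a37, Steap3 and Slc39a14), beside 24.6% of all tested genes, and below them for 0 of 9, beside 14.3%; in either direction the groups were apart for 39.0% of all tested genes. Leaving out NBIF 1, NBIF 2, NBIF 3, DMSO 1 or DMSO 2 left 1 member called, Slc25a37. The median of the members was between 0.02 and 0.14 over the 16 alternative settings.

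**Figure D1:**
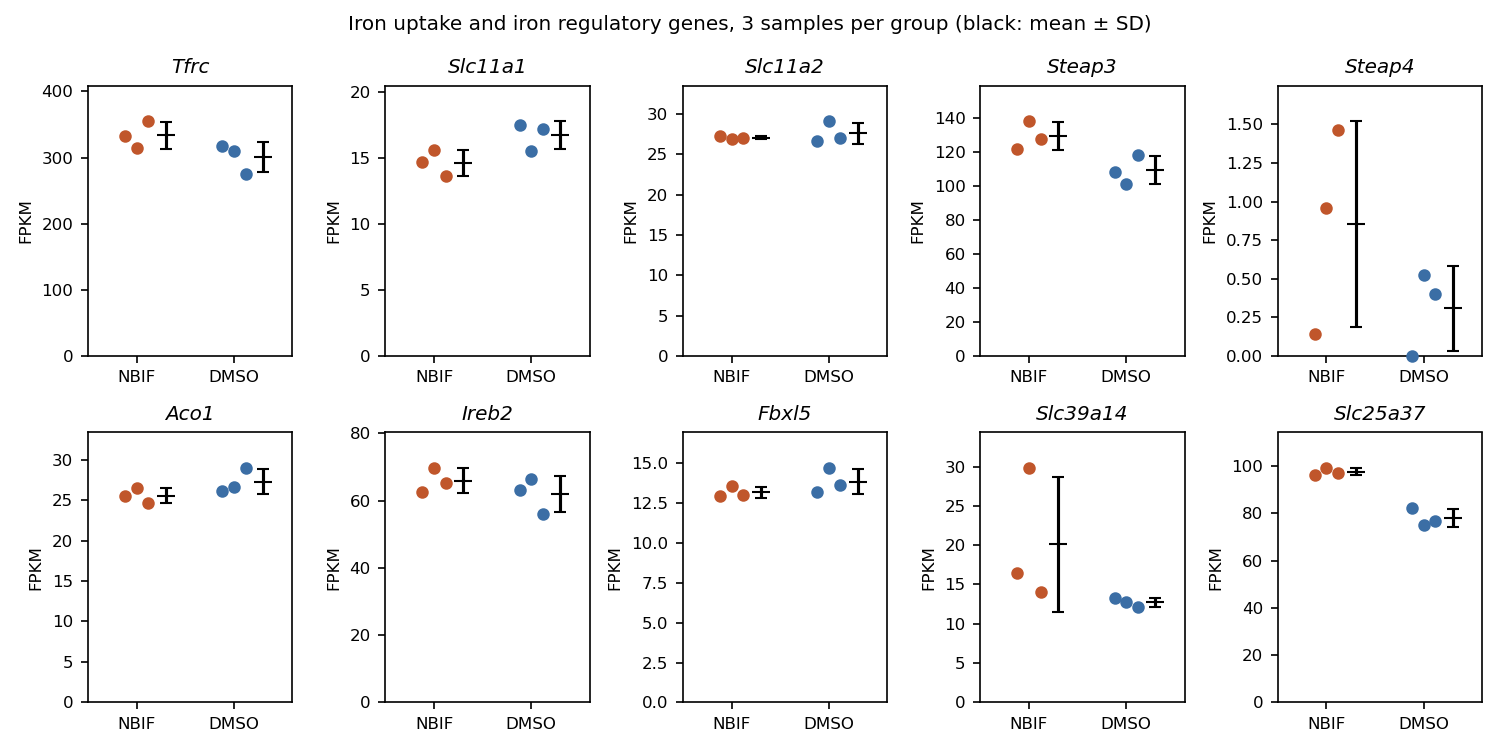
FPKM of the 10 members in each sample, NBIF in orange at the left and DMSO in blue at the right of each panel, on linear axes that start at 0 and differ between panels. Black marks give the mean ± SD of 3 samples. The groups are apart for Steap3, Slc39a14 and Slc25a37, and 1 NBIF sample of Slc39a14 stands at 29.9 FPKM.

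The members spanned a wide range of levels, compared here in FPKM and thus per length. Tfrc was highest in both groups, at 334 ± 20.6 FPKM in NBIF and 301 ± 22.1 FPKM in DMSO (mean ± SD, n = 3 each), above 97.8% of tested genes by its mean over all samples. Steap3, Slc25a37 and Ireb2 followed in that order in both groups, and no sample of one overlapped those of the next. Slc11a2 and Aco1 came next, at 27.1 ± 0.219 and 25.5 ± 0.946 FPKM in NBIF and at 27.6 ± 1.32 and 27.3 ± 1.52 FPKM in DMSO. The samples of these 2 genes overlapped in DMSO and were apart by a small margin in NBIF. Slc11a1, Fbxl5 and Slc39a14 made up the lower part, between 12.2 and 17.5 FPKM in every sample except NBIF 2 for Slc39a14. In NBIF, Slc39a14 overlapped with Aco1 above it and with Slc11a1 below it, and in DMSO it overlapped with Fbxl5. Steap4 was lowest in both groups and the sole member with a mean under 1 FPKM.

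Tfrc (chromosome 16, 32608920 to 32632794 in GRCm38, as for all coordinates below) encodes transferrin receptor 1, which binds iron-loaded transferrin at the cell surface. It had 333, 314 and 355 FPKM in the NBIF samples and 317, 310 and 275 FPKM in the DMSO samples. NBIF 2 lay below DMSO 1, so the groups overlapped. The log2 change was 0.15 ± 0.07 (SE), with a 95% interval from 0.00142 to 0.30, and did not pass after adjustment over all genes (limma adjusted p = 0.147). The upper end of the interval corresponds to a 1.23-fold level on the log2(FPKM + 1) scale. The log2 change was 0.09 without DMSO 3 and stayed above 0 under all 16 alternatives, with adjusted p from 0.0941 to 0.373.

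The STEAP proteins reduce ferric iron so that it can cross the endosomal membrane. Steap3 (chromosome 1, 120190757 to 120272705) had 122, 138 and 128 FPKM in the NBIF samples and 108, 101 and 118 FPKM in the DMSO samples. Every NBIF value was above every DMSO value, with NBIF 1 and DMSO 3 close to each other. Steap3 rose by 0.24 ± 0.07 on the log2 scale (SE; limma adjusted p = 0.0410). The call was lost under 9 of the 16 alternatives, among them without NBIF 1 (adjusted p = 0.0565), NBIF 2 (0.126), NBIF 3 (0.0990), DMSO 1 (0.107) and DMSO 2 (0.102), without a filter (0.0867), after median-ratio scaling (0.0808) and without a variance trend (0.0652), while the log2 change stayed between 0.19 and 0.30. Steap4 (chromosome 5, 7960457 to 7982213), a plasma membrane and endosomal relative known in macrophages and fat for its response to inflammatory signals, lay below the filter. It had 0.143, 0.961 and 1.46 FPKM in the NBIF samples, and was listed at 0 in DMSO 1 and at 0.523 and 0.401 FPKM in DMSO 2 and DMSO 3. NBIF 2 and NBIF 3 were above all DMSO samples and NBIF 1 was below DMSO 2 and DMSO 3. Without a filter its log2 change was 0.46 ± 0.30 (SE; limma adjusted p = 0.419 over 15148 genes). Of the relatives Steap1 and Steap2, Steap2 was listed at 0 in all samples and Steap1 was above 0 in DMSO 2 alone.

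The SLC11 family moves divalent metals with protons. Slc11a2 (chromosome 15, 100387898 to 100425072) encodes DMT1, the endosomal exit route of transferrin-derived iron. It had 27.3, 26.9 and 27.0 FPKM in the NBIF samples and 26.7, 29.1 and 27.1 FPKM in the DMSO samples. The NBIF values lay within the range of the DMSO values, and the log2 change of -0.03 had a 95% interval from -0.15 to 0.09 (limma adjusted p = 0.768). Exons of Gm5475 lie opposite 6.3% of its exonic bases. Slc11a1 (chromosome 1, 74375195 to 74386062) encodes NRAMP1, a transporter of the phagosome membrane, and BALB/c mice carry an allele of it that is known to impair its function. It had 14.7, 15.6 and 13.6 FPKM in the NBIF samples and 17.5, 15.5 and 17.2 FPKM in the DMSO samples. All NBIF values but that of NBIF 2 were below all DMSO values. The log2 change was -0.18 ± 0.07 (SE, 95% interval from -0.34 to -0.02, limma adjusted p = 0.110). Under the 16 alternatives its limma adjusted p ran from 0.0599, after median-ratio scaling, to 0.296, without NBIF 3. Slc11a1 is expressed by macrophages, whose 8 markers all fell in these samples by 0.24 to 2.24 on the log2 scale; their part in its value was not tested.

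Slc39a14 (chromosome 14, 70303469 to 70351425) encodes ZIP14, which takes up iron that is not bound to transferrin, as well as zinc and manganese. It had 16.4, 29.9 and 14.0 FPKM in the NBIF samples and 13.2, 12.8 and 12.2 FPKM in the DMSO samples. The groups did not overlap, but NBIF 2 was far above the other NBIF samples, and the gap between NBIF 3 and DMSO 1 was small. The mean was 20.1 ± 8.54 FPKM in NBIF and 12.7 ± 0.523 FPKM in DMSO (SD, n = 3 each), and the log2 change of 0.55 ± 0.22 (SE; 95% interval from 0.04 to 1.06) did not pass (limma adjusted p = 0.124). Without NBIF 2 the log2 change was 0.24 (adjusted p = 0.116), and without NBIF 3 it was 0.76 (0.0513). Its relative Slc39a8, which encodes ZIP8, averaged 0.891 ± 0.277 FPKM in NBIF and 1.05 ± 0.136 FPKM in DMSO (SD, n = 3 each) and lay below the filter.

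Slc25a37 (chromosome 14, 69241848 to 69285112) encodes mitoferrin 1, which imports iron into mitochondria and is best known from the high heme synthesis of red cell precursors. It had 96.4, 99.3 and 96.9 FPKM in the NBIF samples and 82.2, 74.985 and 76.6 FPKM in the DMSO samples. The lowest NBIF value was well above the highest DMSO value. Slc25a37 rose by 0.32 ± 0.05 on the log2 scale (SE; 95% interval from 0.21 to 0.43; limma adjusted p = 0.00327). The call was kept under all 16 alternatives, with a log2 change between 0.28 and 0.36 and adjusted p from 0.00194 to 0.0170. Its log2 change exceeded that of 94.1% of tested genes. The erythroid markers were near 0, as given above. The housekeeping relative Slc25a28, mitoferrin 2, had 27.8, 26.2 and 28.7 FPKM in the NBIF samples and 27.2, 25.5 and 30.4 FPKM in the DMSO samples (log2 change of -0.00541, limma adjusted p = 0.968). Slc25a37 was thus at 3.55 ± 0.216 times the FPKM of Slc25a28 in NBIF and 2.83 ± 0.270 times in DMSO (SD, n = 3 each). The NBIF ratios lay above the DMSO ratios, and an exact permutation test gave p = 0.1, the smallest that 3 against 3 samples allow (two-sided; 0.267 after Benjamini-Hochberg adjustment over 4 ratios). GENCODE places exons of Gm31748 and Gm27223 on the opposite strand of 6.3% of the exonic bases of Slc25a37, and reads there cannot be assigned without strand information.

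Iron regulatory proteins 1 and 2 are encoded by Aco1 (chromosome 4, 40143081 to 40198338) and Ireb2 (chromosome 9, 54863789 to 54912530). The product of Aco1 is an aconitase when it holds an iron-sulfur cluster and binds RNA when it does not, while that of Ireb2 is removed by the proteasome when iron is ample. Aco1 had 25.5, 26.5 and 24.6 FPKM in the NBIF samples and 26.2, 26.7 and 29.0 FPKM in the DMSO samples (log2 change of -0.09, 95% interval from -0.22 to 0.04, limma adjusted p = 0.321). Ireb2 had 62.4, 69.8 and 65.4 FPKM in the NBIF samples and 63.1, 66.5 and 56.0 FPKM in the DMSO samples (log2 change of 0.09, 95% interval from -0.07 to 0.25, limma adjusted p = 0.410). The groups overlapped for both genes. Without DMSO 3 the log2 change was -0.05 for Aco1 and 0.02 for Ireb2. Ireb2 was the more abundant per length in every sample, and the Aco1 to Ireb2 ratio was 0.388 ± 0.0177 in NBIF and 0.444 ± 0.0639 in DMSO (SD, n = 3 each; exact permutation p = 0.2, two-sided).

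Fbxl5 (chromosome 5, 43744615 to 43821638) encodes the iron-sensing subunit of the ubiquitin ligase that marks iron regulatory protein 2 for removal. It had 12.9, 13.5 and 13.0 FPKM in the NBIF samples and 13.2, 14.7 and 13.6 FPKM in the DMSO samples. The groups overlapped, and the log2 change of -0.07 had a 95% interval from -0.21 to 0.07 (limma adjusted p = 0.478), while without DMSO 2 the log2 change was -0.03. The intervals of Slc11a2, Aco1, Ireb2 and Fbxl5 thus reached no further than 0.25 up or 0.22 down on the log2 scale, and a p that misses the threshold does not show that these genes were alike in the groups. Exons of Bst1, which fell (51.4 ± 1.47 FPKM in NBIF and 63.5 ± 0.265 FPKM in DMSO; limma adjusted p = 0.00295), lie opposite 1.0% of the exonic bases of Fbxl5, and its part in the value was not tested. The regulatory proteins are controlled through protein turnover and iron-sulfur clusters, which RNA levels do not report.

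**Figure D2:**
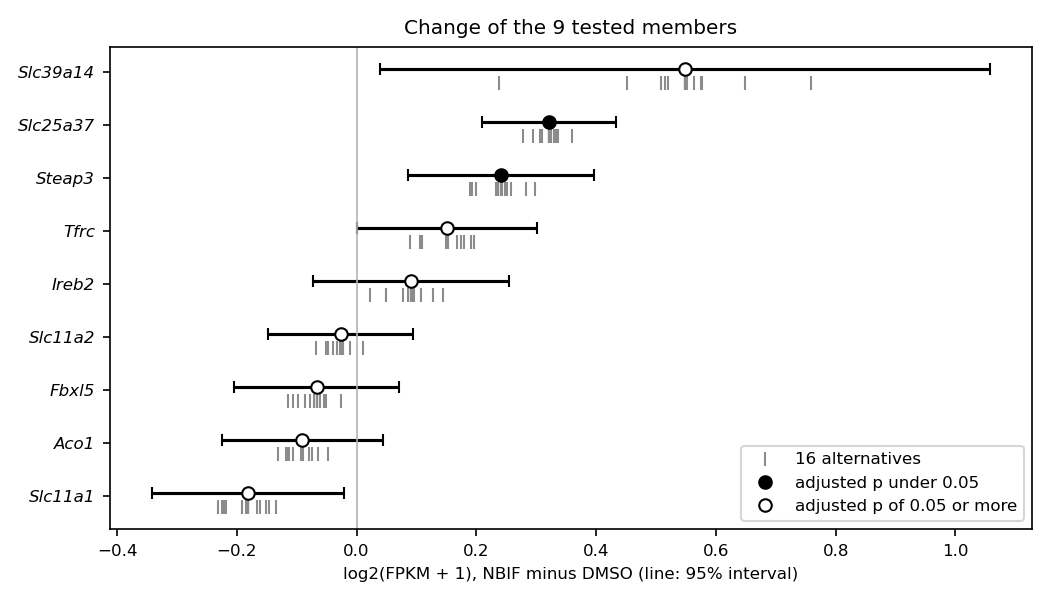
Difference in log2(FPKM + 1), NBIF minus DMSO, for the 9 tested members, with its 95% interval from limma. Filled points passed at an adjusted p under 0.05, and grey ticks give the values under 16 alternative settings. Slc25a37 and Steap3 passed, and the ticks of Slc39a14 spread from 0.24 to 0.76.

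Among 6 tested mRNAs known to carry an iron-responsive element, 4 rose (beside 10.5% of all tested genes) and the members Tfrc and Slc11a2 did not pass. The 4 calls became 2 without NBIF 1, NBIF 2, NBIF 3 or DMSO 1. Slc40a1, the iron exporter ferroportin, had 22.1, 19.8 and 19.0 FPKM in the NBIF samples and 6.93, 6.83 and 6.10 FPKM in the DMSO samples. The ferritin heavy chain gene Fth1 had 3251, 3077 and 3110.2 FPKM in the NBIF samples and 2449.7, 2305 and 2430.2 FPKM in the DMSO samples. For both genes the groups lay far apart, with log2 changes of 1.48 ± 0.08 and 0.39 ± 0.04 (SE; limma adjusted p = 1.34e-05 and 0.000489). The ferritin light chain gene Ftl1 rose by 0.16 (0.0313), a call lost without each of the 6 samples but DMSO 3 (adjusted p from 0.0602 to 0.116), without a filter (0.0797), after median-ratio scaling (0.0989) and without a variance trend (0.0819). The phosphatase gene Cdc14a rose by 0.36 (0.0253), a call lost without each sample but DMSO 2 (0.0536 to 0.0894). Its level was low, at 2.17 ± 0.154 FPKM in NBIF and 1.47 ± 0.209 FPKM in DMSO (SD, n = 3 each). The mean of Cdc14a over all samples was above 6.19% of tested genes, and its match to the element had 4 of the 5 pairs. Ferritin genes have many processed pseudogenes, so the values of Fth1 and Ftl1 are uncertain to the extent that reads were shared with them.

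**Figure D3:**
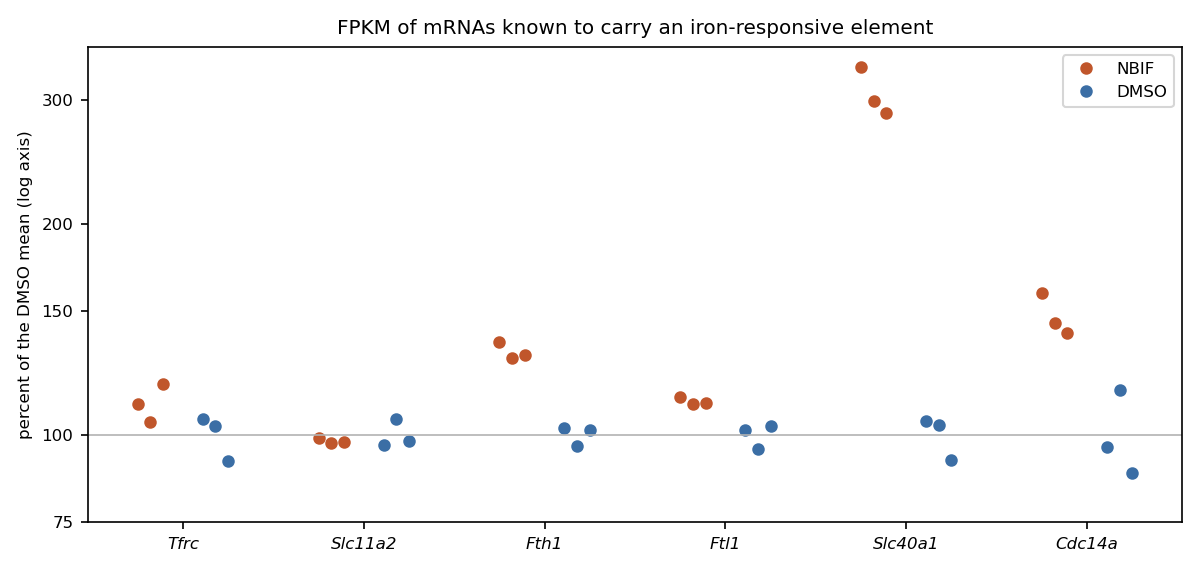
FPKM of 6 tested mRNAs known to carry an iron-responsive element, each sample as a percent of the mean of the DMSO samples, on a log axis. NBIF samples (orange) stand left of DMSO samples (blue). Tfrc samples lie at 104% to 118% in NBIF and 91.6% to 105% in DMSO, and Slc40a1 samples lie at 287% to 334% in NBIF.

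Within each sample, Tfrc was at 0.106 ± 0.00690 times the FPKM of Fth1 in NBIF and 0.126 ± 0.0110 times in DMSO (SD, n = 3 each). The ratios of the groups overlapped, since NBIF 3 (0.114) was above DMSO 3 (0.113), and the log2 ratio differed by -0.24 (exact permutation p = 0.2, two-sided). The Slc11a1 to Slc11a2 ratio was 0.540 ± 0.0369 in NBIF and 0.608 ± 0.0654 in DMSO, also with overlap (exact permutation p = 0.3, two-sided). After Benjamini-Hochberg adjustment over the 4 ratios the values were 0.267 to 0.3, and no ratio could have reached 0.05. No ratio of Steap3 to Steap4 was formed, because Steap4 was listed at 0 in 1 sample.

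Around the members, 75 genes of iron handling were tested from 8 lists, of which 11 rose, 2 fell and 62 did not pass. The share called, 17.3%, was close to the 18.6% of all tested genes, and the median log2 change was 0.04 in both. The 13 calls became 8 without NBIF 1, NBIF 2 or DMSO 1. Of 14 tested genes of export, storage, iron chaperoning and heme breakdown, 5 rose (Slc40a1, Fth1, Ftl1, Hmox1 and Bach1), the biliverdin reductase gene Blvra fell and 8 did not pass, with a median of 0.00704. The heme oxygenase gene Hmox1 had 95.6 ± 2.41 FPKM in NBIF and 73.4 ± 0.860 FPKM in DMSO (log2 change of 0.38, limma adjusted p = 0.000758). Bach1, a heme-sensitive repressor of Hmox1, had 31.9 ± 0.654 FPKM in NBIF and 24.9 ± 0.116 FPKM in DMSO (0.35, 0.00194; SD, n = 3 each). Slc40a1, Fth1, Hmox1 and Bach1 kept their calls under all 16 alternatives.

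Of 25 tested genes of mitochondrial iron, iron-sulfur clusters and heme synthesis, 3 rose, 0 fell and 22 did not pass (median 0.03). Of all tested genes, 18.6% were called in either direction and 10.5% were called higher with NBIF. The share of this list called in either direction was thus below that of all tested genes. The 3 that rose are enzymes of the middle of the heme pathway. Cpox, coproporphyrinogen oxidase, had 32.4 ± 1.01 FPKM in NBIF and 25.6 ± 0.551 FPKM in DMSO (log2 change of 0.33, limma adjusted p = 0.00309). Urod, uroporphyrinogen decarboxylase, had 15.9 ± 0.795 FPKM in NBIF and 12.4 ± 0.466 FPKM in DMSO (0.34, 0.00718). Both calls held under all 16 alternatives. Alad, which makes porphobilinogen, rose by 0.24 (0.0441), a call lost under 9 of the 16 alternatives, among them without each sample but DMSO 2 (adjusted p from 0.0613 to 0.147), without a filter (0.0808), after median-ratio scaling (0.0834) and after quantile normalization (0.0943). Alas1, the first enzyme of the pathway outside red cells, had 44.3 ± 1.84 FPKM in NBIF and 44.6 ± 3.95 FPKM in DMSO, and Fech, which inserts the iron, had 37.8 ± 1.76 FPKM in NBIF and 34.5 ± 8.35 FPKM in DMSO; both were picked for their places in the pathway after their values were seen, and neither passed (limma adjusted p = 0.949 and 0.503).

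Of the 10 genes of transferrin receptor endocytosis and recycling, none passed by limma. An unadjusted limma p under 0.05 was found for 2 of them, beside 3308 of all 9936 tested genes. The clathrin heavy chain gene Cltc had 454 ± 38.8 FPKM in NBIF and 449.7 ± 20.5 FPKM in DMSO. The clathrin adaptor gene Picalm had 118 ± 2.12 FPKM in NBIF and 138 ± 14.8 FPKM in DMSO (limma adjusted p = 0.0726), and it passed after median-ratio scaling (0.0412) and without DMSO 3 (0.0164). Of 9 tested genes of cytosolic iron-sulfur assembly, Ciapin1 rose by 0.18 (0.0267) and 8 did not pass; that call was lost under 7 of the 16 alternatives, among them without each sample but DMSO 3 (up to 0.0989) and after median-ratio scaling (0.0719). Of 4 tested genes of other iron sources and systemic signals, the heme and folate transporter gene Slc46a1 rose by 0.31 (0.0356) and 3 did not pass; that call was lost under 10 of 15 alternatives, among them without any 1 of the 6 samples (0.0517 to 0.120), without a filter (0.0509), after median-ratio scaling (0.0520) and after quantile normalization (0.0536). The hepcidin gene Hamp and the lactoferrin gene Ltf were listed at 0 in all samples. Of 12 tested partners of Fbxl5, hypoxia factors and factors that act on Tfrc mRNA, Zfp36 fell and 11 did not pass. The share called was 8.33% there, 11.1% for cytosolic assembly and 25.0% for other iron sources, beside 18.6% of all tested genes. Zfp36 encodes tristetraprolin, an mRNA decay factor known to act on Tfrc mRNA. It had 9.88, 9.40 and 8.15 FPKM in the NBIF samples and 13.9, 12.8 and 11.7 FPKM in the DMSO samples. The groups did not overlap, and the log2 change was -0.45 ± 0.09 (SE; limma adjusted p = 0.00972), a call kept under all 16 alternatives.

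**Figure D4:**
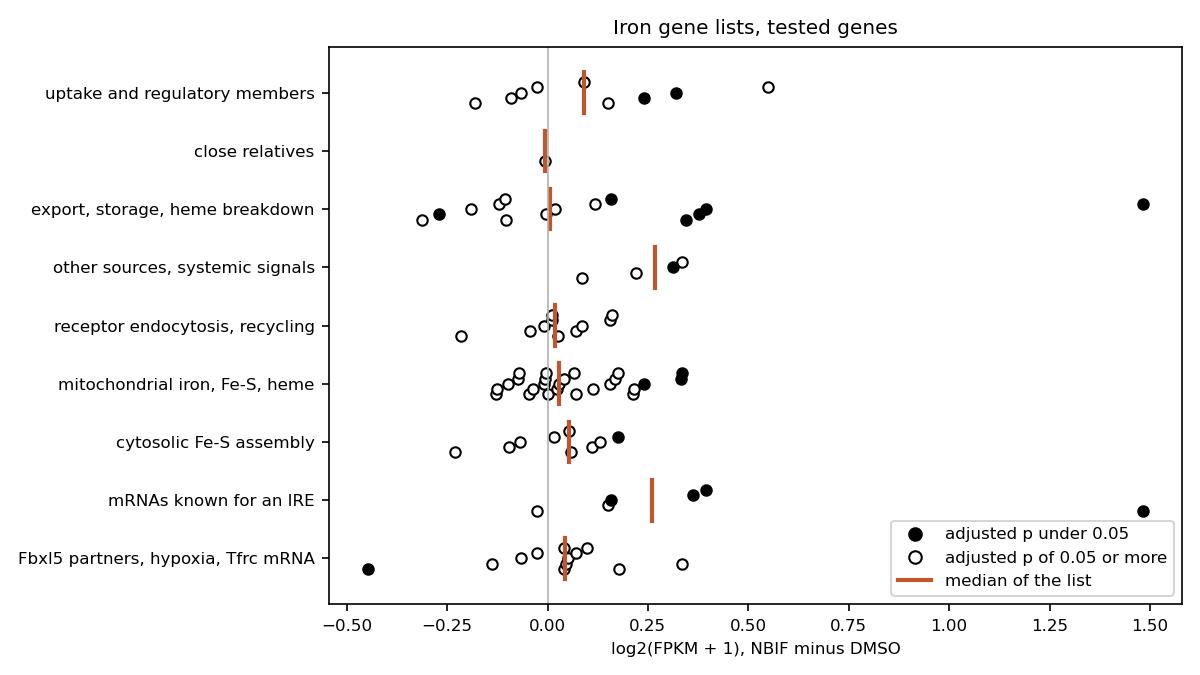
Difference in log2(FPKM + 1), NBIF minus DMSO, for the tested genes of the member list and of 8 other lists of iron handling, some of which share genes. Filled points passed at an adjusted p under 0.05, and orange bars are list medians. The member list spans -0.18 to 0.55, and Slc40a1, at 1.48, appears in 2 lists.

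As the title of the study names Nrf2, the promoters of the members were searched for the core of its binding element, TGACNNNGC, on both strands. The RefSeq table (GRCm38.p6) held 10 windows of 300 bases for 6 members (Tfrc, Slc11a1, Steap3, Steap4, Aco1 and Ireb2), and 0 of the 10 held the core, beside 12.4% of all 32851 windows. These letters are thus not in these windows, 4 of which belong to Steap3, and 10 windows are too few to compare with that share. No window was held for Slc11a2, Fbxl5, Slc39a14 and Slc25a37, and other regions were not searched.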

How the data were processed

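Total RNA was isolated with TRIzol, per the labels' protocols. The authors deposited a single FPKM table, 1 row per symbol and 1 column per sample. Tools named in the submitters' processing notes, with no roles given, are DESeq2 1.20.0, featureCounts 1.5.0-p3, HISAT2 2.0.5, fastp and CASAVA 1.8. The notes also name the human builds GRCh38 and hg38, although 97.9% of symbols are mouse gene names, so the genome used is uncertain. No annotation or strand setting is named, so reads of overlapping genes cannot be told apart. No counts were recovered and the depth is unknown.

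Genes averaging 1 FPKM or more were tested on log2(FPKM + 1), which understates changes of low genes, with limma 3.58.1 in R 4.3.3 (trended prior, two-sided, Benjamini-Hochberg over 9936 genes, threshold 0.05). The procedure was tested on simulated data. Ratios of FPKM had exact permutation tests (scipy 1.17.1). All 10 members, 5 further iron genes (Slc40a1, Fth1, Ftl1, Hmox1 and Bach1) and, per list, up to 3 passing genes of largest change, or else the 2 most abundant, were named. Blvra, Bst1 and the untested relatives of members were named after their values were seen. The members and lists were chosen with earlier results of these data known. Alternatives changed the pseudocount, filter, scaling and variance prior, added a replicate block, or left out 1 sample. Coordinates and elements come from GENCODE M21 (GRCm38) and promoters from RefSeq, matched by symbol. A gene of the lists around the members is not reported here.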

Additional observations from a re-analysis of the deposited data

How the results depend on the processing

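Of 144 results for single members under the 16 alternatives, 134 kept their direction and call, 9 lost the call, all for Steap3, and 1 changed sign, Slc11a2 without DMSO 2 (log2 change of 0.0111; -0.0504 to 0.0111 when single samples were left out). The number of members called, 2, was 1 without a filter, after median-ratio scaling, without a variance trend and with the replicate block, and 1 to 2 when single samples were left out. The block ended the call of Steap3 (adjusted p = 0.0572), and also those of Slc46a1 (0.0664), Alad (0.0796) and Ciapin1 (0.0623). Deviations of same-numbered samples correlated at 0.0355 to 0.126, and those of other-numbered samples at -0.177 to 0.0974. The ranges overlap, so these values do not decide whether the numbers pair the samples. As the labels state no pairing, the main fit used none. The block gave 1632 changed genes in all. Leaving out single samples gave 999 to 1891 changed genes and 8 to 15 changed genes in the lists around the members, against 1850 and 13. The sign of Cltc turned after median-ratio scaling (-0.0312) and without NBIF 2 (-0.00330), NBIF 3 (-0.0422) and DMSO 3 (-0.0241), with -0.0422 to 0.0800 when single samples were left out. That of Slc25a28 turned with the same sum in each sample (0.0103) and without NBIF 2 (0.0292) and DMSO 3 (0.0617), with -0.0616 to 0.0617 when single samples were left out. Slc46a1 and Cdc14a had log2 changes of 0.13 and 0.15 when 5 was the pseudocount, and with quantile normalization that of Ftl1 was 0.25. The median change of all tested genes was 0.04, and 0.00567 after median-ratio scaling. All 28 values of the 4 ratios under their alternatives kept their direction. The cause of these shifts was not tested. The number of samples limits which small changes can be seen, and the depth is unknown.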
